A study of Mus musculus with 8 samples.

Results

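Pdgfra, Pdgfrb, Tcf21, Tbx18, Col1a1, Col1a2, Col3a1, Col5a1, Postn and Lum are genes used to recognise fibroblast-like, or stromal, cells. They were taken by name, as every non-control probe whose gene name in the scanner files equals a listed symbol. The rule found all 10 genes, each with 1 probe, among 34837 gene names and 55663 probes. The rule uses names alone, though the list was drawn up with earlier results of these data known.

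Stromal cells of the developing urogenital tract lie between the epithelial ducts and the nephron precursors and lay down an interstitial matrix of fibrillar collagen. The PDGF receptors are tyrosine kinases that carry signals of platelet-derived growth factors into mesenchymal cells, and Tcf21 and Tbx18 are transcription factors of mesenchyme around forming organs, in the kidney the stroma and the ureteral mesenchyme. Fibrillar collagens assemble from trimers of alpha chains, and Postn (periostin) and Lum (lumican) bind to or organise the fibrils.

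The samples were green cells sorted by flow cytometry from ICR mouse embryos. The Hoxb7-GFP transgene labels the nephric (Wolffian) duct and the ureteric bud that grows from it; these cells were taken at E8.75 (undivided), at E9.5 and E10.5 (rostral and caudal parts) and at E11.5 (the ureteric bud). Flk1-negative selection, which removes endothelial cells, is given for all Hoxb7-GFP cells in the design, but the E8.75 sample title does not name it. Wt1-GFP cells, intermediate mesoderm that gives rise to nephron progenitors, were taken at E9.5 as rostral and caudal parts, with no Flk1 selection stated. Hoxb7-GFP cells are called duct cells here. Each group is thus defined by 1 reporter; the number of embryos behind a sample and any pooling are not given in the sources used here.

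Each sample was hybridised to 1 array, 8 in all, so the pairs of arrays in a group are 2 body positions and not repeats of 1 condition. A level is a log2 signal scaled so that each array has its 75th percentile at 0, and 1 unit is a doubling of signal. The scanner software called 60.6% to 69.2% of an array's probes well above background, and the 75th percentile signal ran from 232.3 to 305.8. All arrays lay on 1 slide. The duct arrays of E8.75, E9.5 and rostral E10.5 lay in row 1, and those of caudal E10.5 and E11.5 lay in row 2 with both Wt1-GFP arrays. E9.5 duct and Wt1-GFP cells therefore share no slide row. The reporters could be checked: Wt1 itself had levels of -0.15 and -1.86 in rostral and caudal E9.5 duct, against 4.14 and 4.09 in rostral and caudal Wt1-GFP cells. Signals of 7 duct epithelium genes summed to 186 and 347 times the 75th percentile in rostral and caudal E9.5 duct, against 12.1 and 7.31 times in the Wt1-GFP arrays. Cldn6 carried much of the duct sums, and all 7 genes were higher in the E9.5 duct.

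Promoter windows of 3 collagens and Postn are printed as examples of the matrix genes, whose start regions range from 35.2% to 76.4% GC. Promoter windows from RefSeq (GRCm38.p6) were used for 7 of the 10 genes, in 8 windows. No window was used for Pdgfrb, Col1a1 and Lum, which does not show that RefSeq lists no promoter for them. Each line gives the 250 bases before an annotated start, 5′ to 3′ on the gene's strand. Capitals mark matches to 3 common promoter motifs on either strand. The CCAAT box is named by its letters. The TATA box was searched as TATAAA. For the GC box the letters were GGGCGG.
Col1a2: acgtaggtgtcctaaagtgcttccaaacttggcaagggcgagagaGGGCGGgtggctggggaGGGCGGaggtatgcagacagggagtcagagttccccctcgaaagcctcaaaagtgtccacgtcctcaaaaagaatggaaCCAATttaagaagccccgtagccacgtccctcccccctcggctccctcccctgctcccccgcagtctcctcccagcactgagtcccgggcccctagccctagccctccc
Col3a1: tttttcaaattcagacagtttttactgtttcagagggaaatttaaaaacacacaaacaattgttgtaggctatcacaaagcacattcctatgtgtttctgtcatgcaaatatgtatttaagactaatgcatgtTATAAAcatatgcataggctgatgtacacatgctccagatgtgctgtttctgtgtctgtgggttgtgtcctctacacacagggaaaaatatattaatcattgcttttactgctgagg
Col5a1: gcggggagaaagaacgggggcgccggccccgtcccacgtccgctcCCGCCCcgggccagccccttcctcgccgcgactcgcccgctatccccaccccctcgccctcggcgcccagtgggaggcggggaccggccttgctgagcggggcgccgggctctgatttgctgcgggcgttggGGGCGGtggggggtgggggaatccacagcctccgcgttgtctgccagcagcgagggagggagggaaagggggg
Postn, the second listed start: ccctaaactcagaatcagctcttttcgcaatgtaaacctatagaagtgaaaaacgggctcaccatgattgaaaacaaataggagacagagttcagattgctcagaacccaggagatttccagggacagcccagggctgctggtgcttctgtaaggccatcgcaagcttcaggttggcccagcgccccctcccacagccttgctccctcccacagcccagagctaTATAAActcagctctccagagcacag

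The Col1a2 window lies at chr6:4505368-4505617 (plus strand, 62% GC), with 1 CCAAT box at 109 to 105 bases before the start and 2 GC boxes. The Col3a1 window lies at chr1:45311288-45311537 (plus strand, 35.2% GC), and its only match is a TATA box at 117 to 112 bases before the start. Col5a1's window, at chr2:27886175-27886424 on the plus strand, is 76.4% GC and holds 2 GC boxes, 1 on each strand. Postn has 2 listed starts, and the window printed, at chr3:54360857-54361106 on the plus strand, holds a TATA box at 26 to 21 bases before the start. The Tbx18 window holds a CCAAT box, and the windows of Pdgfra and Tcf21 hold none of these letters. The motifs are common: over 32851 promoters of 250 bases, 33.8% held the CCAAT box, 12.4% the TATA box and 32.7% the GC box on either strand. These matches are letters in a window and no measurement of binding.

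The 60-base probes lie, on the mm9 build named in the file headers, at chr5:75593888-75593947 for Pdgfra, chr18:61244606-61244665 for Pdgfrb, chr10:22537563-22537622 for Tcf21, chr9:87599514-87599573 for Tbx18 and chr10:97035210-97035269 for Lum. Those of the collagens lie at chr11:94813115-94813174 for Col1a1, chr6:4490619-4490678 for Col1a2, chr1:45405589-45405648 for Col3a1 and chr2:27892892-27892951 for Col5a1, and that of Postn at chr3:54194840-54194899. No annotation of mm9 was used here, so exons and UTRs were not assigned to them. A probe reads the transcripts that hold its 60 bases, and levels of different probes are not set against each other.

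Of the 80 levels (10 genes on 8 arrays), 58 were well above background. Pdgfrb, Tcf21, Col1a2 and Col5a1 were well above background on all 8 arrays, as were 62.6% of the probes tested, Col1a1 and Col3a1 on 7, Pdgfra on 6, Tbx18 on 3, Lum on 2 and Postn on 1. The genes detected were 7 at E8.75, 8 and 7 in rostral and caudal E9.5 duct, 7 and 5 in rostral and caudal E10.5 duct and 5 at E11.5, against 10 and 9 in rostral and caudal Wt1-GFP cells. After each gene was centred on its mean over the 8 arrays, the mean over the 10 genes was -0.91 at E8.75, 0.80 and -0.91 in rostral and caudal E9.5 duct, -1.31 and -1.5 in rostral and caudal E10.5 duct and -1.75 at E11.5, against 3.41 and 2.17 in rostral and caudal Wt1-GFP cells. Both Wt1-GFP arrays thus stand highest and the rostral E9.5 duct next. In such bulk samples, fewer cells of a type and less RNA per cell cannot be told apart.

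**Figure D1:**
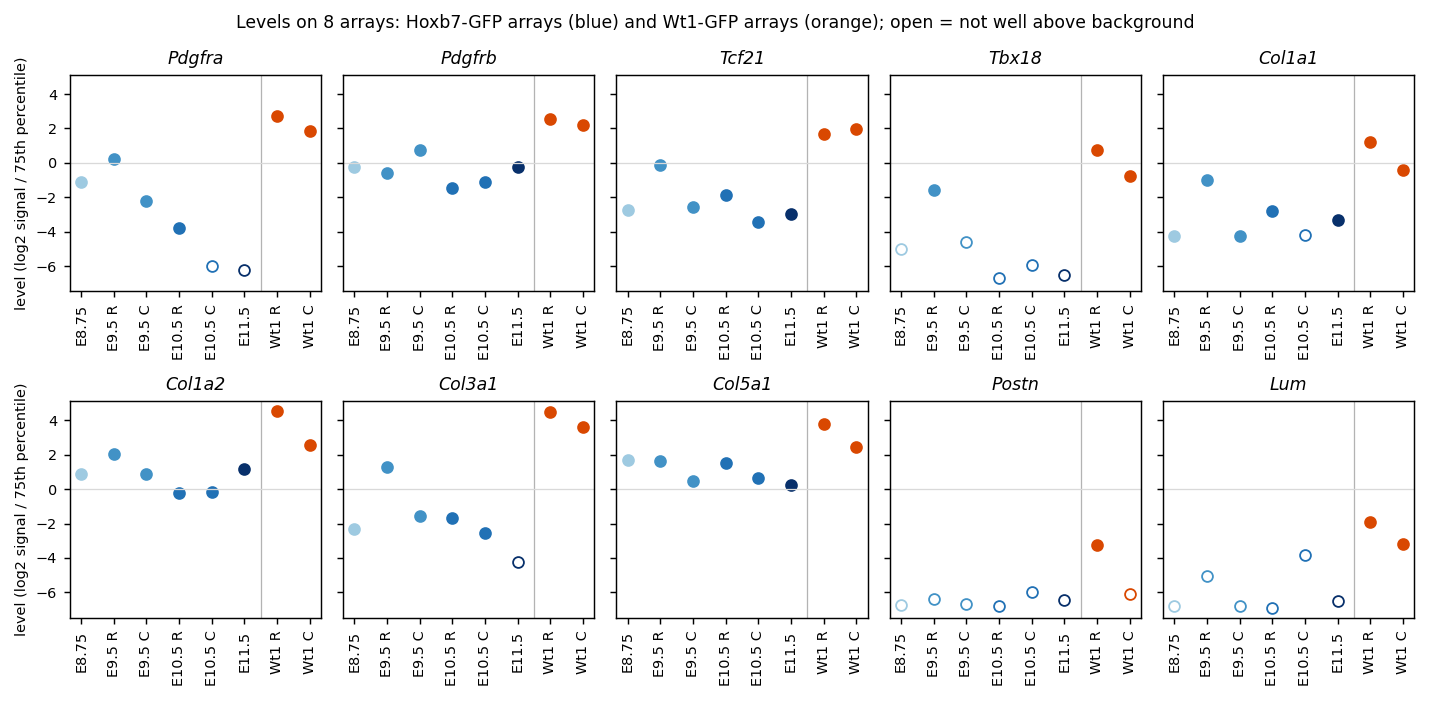
Level of each of the 10 genes (vertical axis, log2 signal relative to the array's 75th percentile) on the 8 arrays (horizontal axis, duct arrays by stage left of the Wt1-GFP arrays). Filled points were well above background and open points were not; 58 of the 80 points are filled, and Lum is filled only on the Wt1-GFP arrays.

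Pdgfra, the alpha receptor, binds PDGF-A and other PDGF chains. Its levels were -1.11 at E8.75, 0.21 and -2.22 in rostral and caudal E9.5 duct, -3.80 and -6.02 in rostral and caudal E10.5 duct and -6.22 at E11.5, against 2.72 and 1.84 in rostral and caudal Wt1-GFP cells. The last 2 duct values, of caudal E10.5 and E11.5, were not well above background, and every duct array lay under both Wt1-GFP arrays. The probe is printed on 10 spots of each array (8 usable on rostral E10.5) whose SD on the log2 scale was 0.072 to 0.468. Those SDs cover spot-to-spot error within an array and not the spread between samples.

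Pdgfrb, the beta receptor known from pericytes and mesenchyme, had levels of -0.27 at E8.75, -0.61 and 0.72 in rostral and caudal E9.5 duct, -1.47 and -1.12 in rostral and caudal E10.5 duct and -0.22 at E11.5, against 2.52 and 2.20 in rostral and caudal Wt1-GFP cells. It was measured on all arrays, and its duct levels stayed within 2.19 of each other, where those of Pdgfra spanned 6.43. The E11.5 array lay above both E10.5 arrays for Pdgfrb, whereas Pdgfra was not well above background at E11.5.

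Tcf21, a basic helix-loop-helix factor, had levels of -2.77 at E8.75, -0.12 and -2.58 in rostral and caudal E9.5 duct, -1.87 and -3.45 in rostral and caudal E10.5 duct and -2.96 at E11.5, against 1.66 and 1.95 in rostral and caudal Wt1-GFP cells. The rostral array was the higher in both divided duct groups and the lower in the Wt1-GFP cells. Tbx18, a T-box repressor, had levels of -5.01 at E8.75, -1.57 and -4.63 in rostral and caudal E9.5 duct, -6.72 and -5.95 in rostral and caudal E10.5 duct and -6.51 at E11.5, against 0.72 and -0.79 in rostral and caudal Wt1-GFP cells. Rostral E9.5 was the only duct array on which Tbx18 was well above background.

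Col1a1 and Col1a2 encode both chains of type I collagen. Col1a1 levels were -4.26 at E8.75, -1.02 and -4.23 in rostral and caudal E9.5 duct, -2.79 and -4.17 in rostral and caudal E10.5 duct (not well above background in the caudal part) and -3.32 at E11.5, against 1.21 and -0.42 in rostral and caudal Wt1-GFP cells. Col1a2 levels were 0.86 at E8.75, 2.07 and 0.87 in rostral and caudal E9.5 duct, -0.22 and -0.16 in rostral and caudal E10.5 duct and 1.17 at E11.5, against 4.56 and 2.55 in rostral and caudal Wt1-GFP cells. Both genes were lower on every duct array than on either Wt1-GFP array. For Col1a2 the rostral E9.5 duct lay 0.48 under the caudal Wt1-GFP array, a gap smaller than the 2.01 between the Wt1-GFP arrays themselves.

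Col3a1 forms the type III collagen of soft connective tissue and Col5a1 a chain of type V collagen, which starts fibrils and sets their width. Col3a1 levels were -2.32 at E8.75, 1.28 and -1.59 in rostral and caudal E9.5 duct, -1.67 and -2.54 in rostral and caudal E10.5 duct and -4.26 at E11.5 (not well above background), against 4.50 and 3.64 in rostral and caudal Wt1-GFP cells. Col5a1 levels were 1.72 at E8.75, 1.62 and 0.49 in rostral and caudal E9.5 duct, 1.5 and 0.62 in rostral and caudal E10.5 duct and 0.23 at E11.5, against 3.76 and 2.47 in rostral and caudal Wt1-GFP cells. Col5a1 was the flattest of the collagens among the duct arrays, and Col3a1 spread most.

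Postn, a matricellular protein, was well above background only in rostral Wt1-GFP cells, at -3.22. Its other levels were -6.71 at E8.75, -6.38 and -6.70 in rostral and caudal E9.5 duct, -6.78 and -5.96 in rostral and caudal E10.5 duct and -6.46 at E11.5, against -6.12 in caudal Wt1-GFP cells. Lum, a keratan sulfate proteoglycan of collagen fibrils, was well above background only on the Wt1-GFP arrays. It had levels of -6.77 at E8.75, -5.03 and -6.82 in rostral and caudal E9.5 duct, -6.90 and -3.83 in rostral and caudal E10.5 duct and -6.53 at E11.5, against -1.91 and -3.19 in rostral and caudal Wt1-GFP cells. The order of the duct levels of these 2 genes lies below the background call. Of all probes tested, 0.0899% were likewise well above background on both Wt1-GFP arrays and no other, a pattern that holds for Lum among the 10 genes.

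The E9.5 duct was set against E9.5 Wt1-GFP cells to compare duct precursors with the neighbouring nephron-lineage precursors of the same day. All 10 genes were lower in the duct, and for all 10 both duct arrays lay below both Wt1-GFP arrays, as did 26.8% of the 45585 probes tested. The 10 include Postn and Lum, with no duct array well above background and Postn also dim in caudal Wt1-GFP cells, and Tbx18, with 1 such duct array. Tested probes had to be well above background on 1 or more arrays, which Postn and Lum met on Wt1-GFP arrays alone. The lower duct levels of Postn and Lum were thus close to fixed in advance. The other 7 were well above background on all 4 arrays of the comparison. The median difference of the 10 genes was -3.04, against -0.05 over all probes, of which 53.2% were lower. Below every Wt1-GFP level on all 6 duct arrays were 9 of the 10, Postn being the exception, against 8.16% of probes.

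In the duct Col3a1 was 18.7-fold lower (log2 difference -4.23, SE 0.64), Pdgfra 9.74-fold (-3.28, SE 0.49), Tcf21 8.93-fold (-3.16, SE 0.76) and Col1a1 8.09-fold (-3.02, SE 0.56). The smaller differences were those of Pdgfrb, 4.94-fold lower (-2.30, SE 0.48), Col1a2, 4.24-fold (-2.08, SE 0.59), and Col5a1, 4.17-fold (-2.06, SE 0.24). Tbx18 (-3.07, SE 1.02) was at least 8.37-fold lower and Lum at least 4.07-fold lower. Here each duct array not well above background was set to the dimmest detected level of that array, or kept its own level where higher. The latter held for Tbx18 in caudal E9.5, at -4.63 against -4.75. Postn has no fold here, with a fitted difference of -1.87 (SE 1.01). With normexp background correction the median of the 10 was -1.93, with Tbx18 at -1.69 and Lum at -0.83.

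None of these passed limma's test with Benjamini-Hochberg adjustment over all probes, nor did any probe of the array (0% called). Adjusted p-values ran from 0.24 for Col5a1 to 0.51 for Postn, and the lowest over all probes was 0.21. Unadjusted p-values were under 0.05 for 8 of the 10 genes, all lower, against 5.80% of probes lower at that level. With the spread estimated as a trend on intensity, Pdgfra (adjusted p = 0.042), Col3a1 (0.034) and Col5a1 (0.023) passed as lower, against 0.974% of probes called lower. Leaving out the caudal E9.5 duct array, either E10.5 duct array or the caudal Wt1-GFP array ended all 3 calls, with adjusted p-values of 0.055 to 0.18. Leaving out the rostral E9.5 duct array also ended that of Pdgfra (0.068), and leaving out the rostral Wt1-GFP array that of Col5a1 (0.054). With quantile normalization none of the 3 passed (0.051 to 0.10).

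With slide row as a block no probe passed, the 3 adjusted p-values with the trend were 0.70 each, the median difference was -1.86 and 8 of the 10 genes were lower. Pdgfra differed by -3.85, Tcf21 -3.65, Col3a1 -3.23, Pdgfrb -2.46, Col1a1 -1.99 and Col5a1 -1.74, whereas Col1a2 was at -0.41 and Tbx18 at -0.01. Postn and Lum were higher, at 0.55 and 1.23. The E10.5 duct was the only group with arrays in both rows, so the block rests on that 1 rostral and caudal pair. For Tbx18, Postn and Lum neither array of the pair was well above background. Within row 2, the caudal E10.5 and E11.5 duct arrays lay below both Wt1-GFP arrays for 9 of the 10 genes, all but Postn, as for 24.3% of probes, but those arrays differ in day as well as in reporter.

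**Figure D2:**
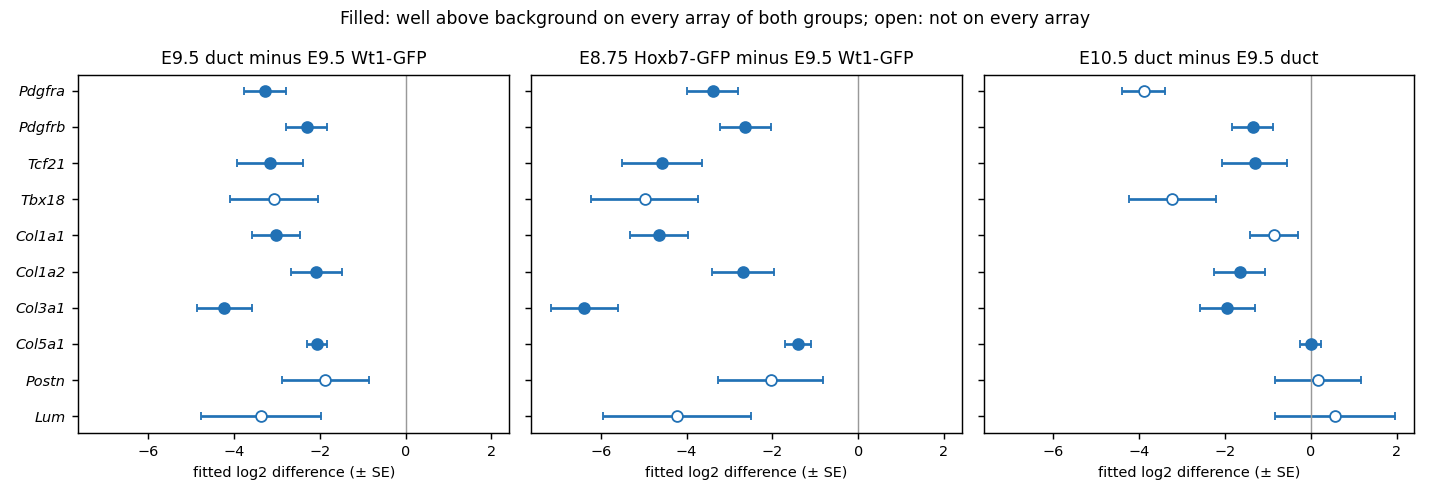
Log2 difference and standard error (horizontal axis) of each of the 10 genes (vertical axis) for the E9.5 duct minus Wt1-GFP cells, E8.75 minus Wt1-GFP cells and the E10.5 minus the E9.5 duct. Bars are standard errors from limma and an open point marks a gene with at least 1 undetected array among the groups compared; all 10 points lie below 0 in both comparisons with Wt1-GFP cells, with Col3a1 farthest out at -4.23 and -6.39.

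At E8.75 the duct cells were also lower than the E9.5 Wt1-GFP cells for all 10 genes, each by more than 1 on the log2 scale from the Wt1-GFP mean, as for 13.1% of probes. The 2 groups differ in day here, E8.75 is 1 array, and the Wt1-GFP arrays are those of the comparison just given. Postn and Lum again count among the 10 through the Wt1-GFP arrays alone. Col3a1 was 83.8-fold lower (log2 difference -6.39, SE 0.78), Col1a1 25.1-fold (-4.65, SE 0.68) and Tcf21 23.7-fold (-4.57, SE 0.93). Col5a1 was closest to the Wt1-GFP cells, 2.63-fold lower (-1.40, SE 0.30), with Pdgfrb at -2.63 (SE 0.59), Col1a2 at -2.69 (SE 0.72) and Pdgfra at -3.39 (SE 0.60). On the processed signals used here, Tbx18 was at least 28.7-fold lower and Lum at least 5.01-fold lower. The bound of Tbx18 does not hold under other processing: its log2 difference was -2.28 with normexp background correction and -1.93 with slide row as a block.

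The median over the 10 genes was -3.80, against -0.02 over all probes. Adjusted p-values of the genes just named were 0.22 or more in limma's test (0% of probes called), while 8 of the 10 had an unadjusted p under 0.05 and were lower, against 6.22% of probes. With the intensity trend, Col3a1 passed (adjusted p = 0.045), where 0.158% of probes were called lower.

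Within the duct, E9.5 was set against E8.75, and successive stage comparisons share the arrays of the stage between them. Of the 10 genes, 9 were higher and 1 lower at E9.5, where 49.1% of probes were higher. Postn and Lum, counted among the 9, were not well above background on any array of either stage, so their direction was not measured. The median was 0.73, against -0.02 over all probes. More than 1 above the E8.75 array were 4 genes, against 14.1% of probes. These were Col3a1 (2.16, SE 0.78), Tbx18 (1.91, SE 1.25), Col1a1 (1.63, SE 0.68) and Tcf21 (1.41, SE 0.93). For Tbx18, 1 of 2 E9.5 arrays was well above background and the E8.75 array was not, so its fold was not bounded. For Tcf21, Col1a1 and Col3a1 the caudal E9.5 array lay within 0.73 of the E8.75 array and the rostral array above it by 2.65 or more. Pdgfra differed by 0.10 (SE 0.60) and Pdgfrb by 0.32 (SE 0.59), differences under their standard errors that turn to -0.34 without the rostral and -0.33 without the caudal E9.5 array. Col5a1 was the gene that was lower, at -0.66 (SE 0.30). None passed limma's test (adjusted p of 0.35 or more; 0% of probes called).

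Between E10.5 and E9.5 the receptors and most collagens were lower in the later duct. Both E10.5 arrays lay under both E9.5 arrays for Pdgfra, Pdgfrb, Tbx18, Col1a2 and Col3a1, that is 5 of the 10 genes, against 16.9% of probes. Pdgfra had a fitted log2 difference of -3.90 (SE 0.49, unadjusted p = 0.0018). As 1 of its 2 E10.5 arrays was well above background, it was at least 7.16-fold lower, with the dimmest detected level standing in for the other. Tbx18 differed by -3.23 (SE 1.02), with rostral E9.5 its only array well above background there, so its fold was not bounded. Col3a1 differed by -1.95 (SE 0.64), Col1a2 by -1.66 (SE 0.59), Pdgfrb by -1.35 (SE 0.48), Tcf21 by -1.31 (SE 0.76) and Col1a1 by -0.85 (SE 0.56).

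Leaving out an E9.5 or E10.5 array moved several of these: the smallest values were -0.94 for Col3a1, -0.40 for Tcf21 and -0.01 for Col1a1 without the rostral E9.5 array, -0.70 for Pdgfrb without the caudal E9.5 array and -0.82 for Col1a2 without the rostral E10.5 array. Col5a1 differed by 0.00 (SE 0.24). The median was -1.33, against 0.00 over all probes, and 6 genes lay more than 1 lower, against 7.03% of probes. In limma's test 0% of probes passed and adjusted p-values were 0.60 or more. The unadjusted p was under 0.05 for 3 of the 10 genes, all lower, against 3.56% of probes.

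At E11.5, on 1 array, the 10 genes parted. Pdgfrb was above the E10.5 mean by 1.07 (SE 0.59) and Col1a2 by 1.36 (SE 0.72). More than 1 lower were 3 genes, Pdgfra, Col3a1 and Lum, against 13.0% of probes. Col3a1 was at least 4.46-fold lower at E11.5, where it was not well above background, and Pdgfra was not well above background there either. Lum was not well above background on either E10.5 array or at E11.5, so its difference has no measured side. Tcf21 differed by -0.30 and Col5a1 by -0.83 (SE 0.30), the median was -0.24 against -0.04 over all probes, and none passed limma's test (0% of probes called).

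Rostral arrays were set against caudal ones within each divided group, since the duct grows caudally. The rostral E10.5 array lay in slide row 1 and the caudal one in row 2, so position and slide row cannot be told apart in that pair. The E9.5 duct pair and the Wt1-GFP pair each lay in 1 row. In the E9.5 duct 9 of the 10 genes were higher in the rostral part, with a median of 2.11, where 54.6% of probes were higher. In the E10.5 duct 5 of 10 were higher (median 0.40; 45.6% of probes), and in Wt1-GFP cells 9 of 10 (median 1.28; 52.0% of probes). More than 1 higher in the rostral part were 8 genes in the E9.5 duct (12.4% of probes), 3 in the E10.5 duct (9.81%) and 6 in Wt1-GFP cells (12.1%). Some of these genes had 1 or more arrays of the pair not well above background. They were Tbx18 and Lum in the E9.5 duct, Pdgfra and Col1a1 in the E10.5 duct, and Postn in Wt1-GFP cells.

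Pdgfra, Col1a1, Col3a1 and Col5a1 were higher rostrally in 3 of 3 pairs, as were 15.3% of probes. For Col1a1 the differences were 3.20 in the E9.5 duct, 1.39 in the E10.5 duct and 1.63 in Wt1-GFP cells. Those of Pdgfra were 2.43, 2.22 and 0.88 in the same order, those of Col3a1 2.88, 0.87 and 0.86, and those of Col5a1 1.12, 0.89 and 1.29. Caudal E10.5 was not well above background for Pdgfra and Col1a1. The dimmest detected level of that array was -3.89, where rostral E10.5 Pdgfra was at -3.80. Col5a1 was thus nearly even across the pairs and Col1a1 largest in the E9.5 duct.

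The other genes did not share a direction over the 3 pairs. Pdgfrb was lower rostrally in both duct groups, by -1.33 and -0.35, against 0.32 in Wt1-GFP cells. Tcf21 differed by 2.46 in the E9.5 duct and 1.58 in the E10.5 duct, against -0.28 in Wt1-GFP cells. Tbx18 differed by 3.06 in the E9.5 duct and -0.77 in the E10.5 duct, where both arrays were not well above background, against 1.51 in Wt1-GFP cells. Its caudal E9.5 array was not well above background either.

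Fitted over the 3 pairs, the rostral difference was 2.07 (SE 0.45) for Col1a1, 1.84 (SE 0.40) for Pdgfra, 1.54 (SE 0.52) for Col3a1 and 1.10 (SE 0.20) for Col5a1, each with an unadjusted p under 0.05. These are 4 of the 10 genes, against 3.85% of probes that were higher at that level. Tcf21 (1.25, SE 0.62), Col1a2 (1.05, SE 0.48) and Tbx18 (1.26, SE 0.83) were higher too, and Pdgfrb was lower (-0.45, SE 0.39). Adjusted p-values in limma were 0.76 or more, with 0% of probes called. This fit pools the E10.5 pair, which also differs in slide row, with the other pairs. The median was 1.18, against 0.01 over all probes.

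**Figure D3:**
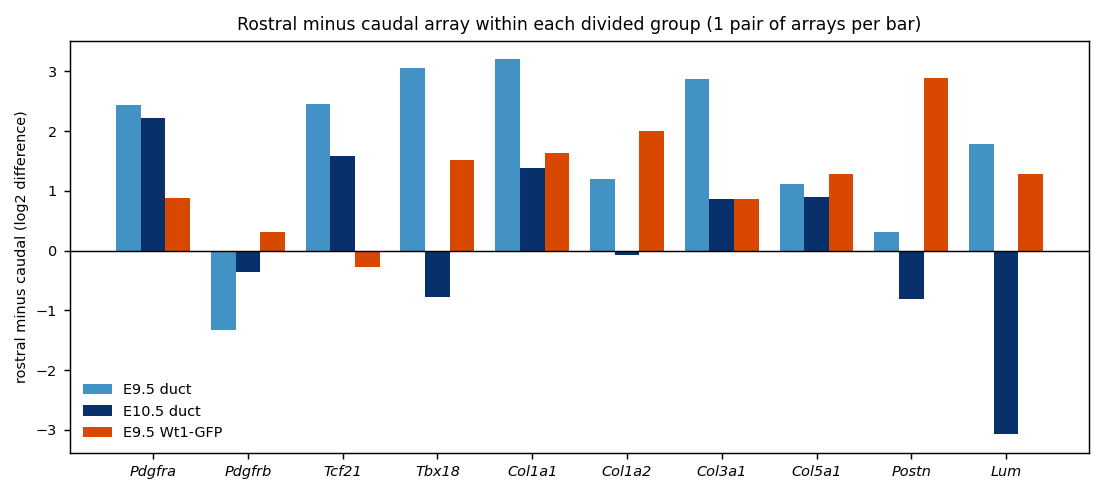
Rostral minus caudal log2 difference (vertical axis) of each of the 10 genes (horizontal axis), with 1 bar for each pair of arrays, from left to right the E9.5 duct, the E10.5 duct and the E9.5 Wt1-GFP cells. Pdgfra, Col1a1, Col3a1 and Col5a1 lie above 0 in all 3 pairs, and bars have no error since each is 1 pair. Those of Postn and, in the duct, of Lum and Tbx18 rest on 1 or more arrays not well above background. So do the E10.5 bars of Pdgfra and Col1a1. The arrays of the E10.5 pair also lie in different slide rows.

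Over the 8 arrays the profiles of the 10 genes resembled each other, with correlations over the 45 pairs of genes from 0.53 (Pdgfra with Postn) to 0.97 (Tcf21 with Col3a1) and a median of 0.81. The 8 points share 1 slide, and both Wt1-GFP arrays weigh on all of these values, so they are a description. Among 24391 named genes, the profile most like that of Pdgfra was Meis1 (r = 0.972 over the 8 arrays), and the most like Tcf21 was Gas1 (0.985). Svep1 came closest to Col5a1 (0.976), Dnajc11 to Col3a1 (0.991) and Eps15l1 to Tbx18 (0.986). Closest to the mean profile of the 10 were 2 transcripts that the files name only by position and Apeg3 (0.981).

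Genes of the same pathway and matrix differed from list to list in the E9.5 duct set against Wt1-GFP cells, and none of those named below passed limma's test (0% of probes called). The PDGF ligands, which signal through both receptors, were 3 higher and 1 lower of 4, with a median of 0.32. Pdgfa, the ligand of the alpha receptor, had levels of -0.41 at E8.75, -0.47 and -0.62 in rostral and caudal E9.5 duct, 1.66 and 0.86 in rostral and caudal E10.5 duct and 0.31 at E11.5, against -1.32 and -1.04 in rostral and caudal Wt1-GFP cells. All duct arrays lay above both Wt1-GFP arrays for this ligand, in the opposite order to Pdgfra. At E10.5 Pdgfa was higher than at E9.5 by 1.80 (SE 0.36, adjusted p = 0.60), the comparison in which Pdgfra was lower. Pdgfc was lower in the E9.5 duct by -0.76 (SE 0.25), Pdgfd differed by 1.08 and Pdgfb by 0.01. Pdgfd was well above background on 2 arrays only. Its rostral and caudal Wt1-GFP levels, -4.95 and -5.68, lay under those arrays' dimmest detected levels of -3.89 and -4.15. The size of its difference thus rests on signal near background.

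Transcription factors of kidney stroma and mesenchyme were lower in the E9.5 duct for all 19 measured, with a median of -2.60. In 18 of the 19 both duct arrays lay under both Wt1-GFP arrays, against 26.8% of probes, and 15 had an unadjusted p under 0.05, against 5.80% of probes lower at that level. Foxd1, the factor of the cortical stroma of the kidney, had levels of -2.03 and -0.62 in rostral and caudal E9.5 duct, against 3.14 and 2.92 in rostral and caudal Wt1-GFP cells (log2 difference -4.35, SE 0.47). Foxc1 differed by -4.70 (SE 1.20), Nr2f1 by -2.60 (SE 0.89) and Tbx15 by -0.38 (SE 1.05). The caudal E9.5 level of Foxc1, -5.24, lay under that array's dimmest detected level of -4.75. Between E10.5 and E9.5, Foxd1 differed by -4.62 (SE 0.47), Twist1 by -4.64 (SE 0.72), Zeb1 by -3.41 (SE 0.66) and Meis1 by -3.32 (SE 0.69), each with an adjusted p of 0.60 or more. The dimmest detected levels were -4.97 on the rostral and -3.89 on the caudal E10.5 array. Foxd1 (-6.28 rostral, -5.61 caudal) and Twist1 (-6.07 rostral, -4.08 caudal) lay under them, so the sizes of their differences rest on signal near background.

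The other fibrillar collagens were split, 3 higher and 3 lower of 6, with a median of -0.31. Col2a1, the cartilage collagen, differed by -2.78 (SE 0.34) and Col5a2, the partner chain of Col5a1, by -2.63 (SE 0.24), though Col5a2 was well above background on 1 array only. Col11a1 differed by 1.11 and Col27a1 by 0.41. Col11a1 was well above background on 2 arrays only. Its rostral and caudal Wt1-GFP levels, -4.34 and -4.4, lay under those arrays' dimmest detected levels of -3.89 and -4.15. The size of its difference thus rests on signal near background. Fibril-associated and beaded collagens were 2 higher and 5 lower of 7 (median -1.08), with Col9a1 at -2.52 and Col6a2 at 0.81.

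Basement membrane collagens, which underlie epithelia, were 6 higher and 1 lower of 7 (median 0.24), and in 0 of the 7 did both duct arrays lie under both Wt1-GFP arrays, against 26.8% of probes. Col4a1 differed by 0.67, Col4a2 by 0.01 and Col18a1 by -0.05. Enzymes and chaperones of collagen synthesis were 1 higher and 20 lower of 21, by small amounts (median -0.43): Serpinh1, the collagen chaperone, differed by -0.43, P4hb by -0.36 and Ppib by -0.14. Pcolce, which speeds the cleavage of the procollagen end, was the lowest at -2.68, and Plod1, a lysyl hydroxylase, was higher by 0.54.

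Interstitial matrix glycoproteins were 1 higher and 14 lower of 15 (median -1.07). Tgfbi, a secreted relative of periostin, had levels of -1.07 and -4.32 in rostral and caudal E9.5 duct, against 2.46 and 1.13 in rostral and caudal Wt1-GFP cells (log2 difference -4.49, SE 0.54). Fn1 (fibronectin) differed by -0.51, Fbn2 by -0.49 and Fbln2 by 1.48. Small leucine-rich proteoglycans, the family of Lum, were 1 higher and 3 lower of 4 measured. Dcn (decorin) was at -1.61, Omd at -1.55, Bgn at -0.55 and Fmod at 0.53. Dcn was well above background on 2 arrays only and Omd on 1. Omd levels were -6.42 and -6.53 in rostral and caudal E9.5 duct, against -5.45 and -4.41 in rostral and caudal Wt1-GFP cells. All lay under the dimmest detected level of their array, so the difference of Omd has no measured side.

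**Figure D4:**
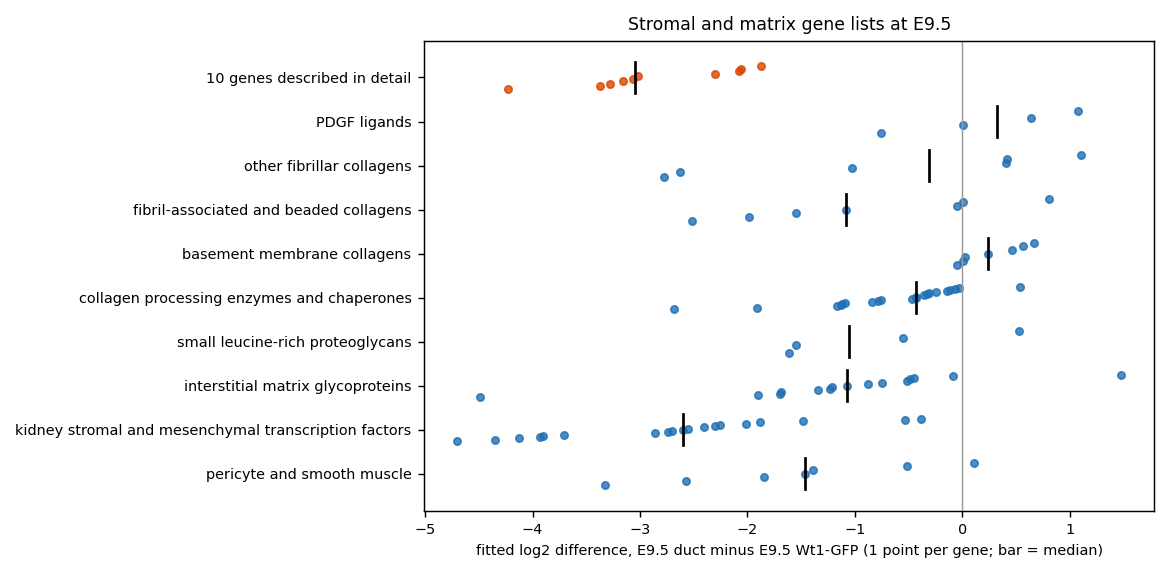
Log2 difference of each measured gene (horizontal axis, 1 point a gene) in the E9.5 duct minus Wt1-GFP cells, by gene list (vertical axis), with a bar at each list's median. The 10 stromal genes centre on -3.04 and the stromal and mesenchymal transcription factors on -2.60, while PDGF ligands centre on 0.32 and basement membrane collagens on 0.24.

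Markers of other cell types differed along with these genes, as summed signal relative to the array's 75th percentile shows. The 10 genes summed to 6.85 at E8.75, 13.3 and 5.71 in rostral and caudal E9.5 duct, 4.88 and 3.33 in rostral and caudal E10.5 duct and 4.60 at E11.5, against 79.5 and 37.3 in rostral and caudal Wt1-GFP cells. Coelomic epithelium markers were lower in the E9.5 duct for 5 of 5 and summed to 1.13 and 0.512 in rostral and caudal E9.5 duct, against 23.3 and 19.1 in rostral and caudal Wt1-GFP cells. Wt1, whose reporter the Wt1-GFP cells were sorted on, is 1 of the 5. Without it the other 4 were all lower and summed to 0.215 and 0.228 in rostral and caudal E9.5 duct, against 5.63 and 2.06 in rostral and caudal Wt1-GFP cells. Over all probes 53.2% were lower. Bnc1, 1 of the 4, was well above background on the Wt1-GFP arrays alone (-0.24 rostral, -1.36 caudal), so its lower duct level was close to fixed in advance. Pericyte and smooth muscle markers, 6 of 7 lower, summed to 8.46 and 4.55 in rostral and caudal E9.5 duct, against 25.7 and 26 in rostral and caudal Wt1-GFP cells, with Des at -3.33, Rgs5 at -2.57 and Tagln at -1.85. Lateral plate and limb markers, 5 of 6 lower, summed to 3.76 and 0.937 in rostral and caudal E9.5 duct, against 6.14 and 8.67 in rostral and caudal Wt1-GFP cells.

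Endothelial markers were 5 higher and 1 lower of 6 in the E9.5 duct set against Wt1-GFP cells, blood markers 3 higher and 1 lower of 4, neural crest markers 2 higher and 1 lower of 3, and sclerotome and somite markers 3 higher and 4 lower of 7. Coelomic markers well above background numbered 2 of 6 on each E9.5 duct array, against 5 of 6 on each Wt1-GFP array. Rostral and caudal E9.5 duct also differed in such sums: the stromal and mesenchymal factors reached 90.1 in the rostral and 21.0 in the caudal part, and the duct epithelium genes 186 in the rostral and 347 in the caudal part. Nr2f1 (5.68 rostral, 2.17 caudal) carried much of the 90.1, while Foxd1, Prrx1, Prrx2 and Snai1 were higher caudally. Cldn6 (7.01 rostral, 7.99 caudal) carried much of both duct epithelium sums, and of that list only Cdh1 was not higher caudally. Blood markers were mixed between these parts: the globins Hbb-bh1 (1.13 rostral, 2.34 caudal) and Hba-x (0.77 rostral, 1.93 caudal) were higher caudally, Alas2 (-0.61 rostral, -3.05 caudal) was higher rostrally, and Ptprc was at -2.01 and -1.92. At E8.75, endothelial markers summed to 33.3, against 4.05 to 5.78 on the later duct arrays. Sclerotome and somite markers summed to 11.3 there, against 0.979 to 3.13 on the later duct arrays, but Meox1, with a level of 3.32 at E8.75, carried that sum: without it the other 6 summed to 1.32 at E8.75, against 0.968 to 1.82 on the later duct arrays. The part of these other cell types in the levels of the 10 genes was not tested.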

How the data were processed

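Sorted cells were profiled on 8 Agilent 1-colour arrays. RNA was amplified with NuGEN's Pico kit from 10 ng and its product labelled with Cy3, per the labels. Per the file headers, the intensity values are processed signals of Agilent Feature Extraction 10.7.3.1, corrected for background within the array by the authors' software. A deposited matrix holds log2 values whose scale is not stated; they followed the levels used here after centring on each probe's median (r = 0.999977, column medians -0.07 to 0.08), and they served as an alternative.

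Outlier spots were left out, repeated spots averaged, and 18 probes dropped, leaving 55663. Levels are log2 processed signals with each array's 75th percentile, taken over probes, set to 0. The fit took the 45585 probes that 1 or more of the 8 arrays had well above background. It was run in limma 3.58.1 (R 4.3.3), with 5 group terms and a rostral-caudal term, 2 residual degrees of freedom, plain empirical Bayes, Benjamini-Hochberg adjustment over all probes and a threshold of 0.05. The difference in position effect between reporters was fitted with separate terms. With 1 array per sample and no statement of separate animals, p-values measure the spread left between these arrays, and the number of arrays limits the precision. The procedure was tested on simulated data.

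A fold against a gene not well above background is a bound, set by the dimmest detected signal of each array, or by the gene's own signal where that was higher. Such a bound is for the processed signals used here and need not hold with another background correction or with slide row as a block. The 10 genes and the lists were chosen with earlier results of these data known, so counts in them describe and do not test. Genes named from a list are its 2 brightest and its highest and lowest in the E9.5 comparison, of which 1 is not reported here; Foxd1, Twist1, Zeb1, Meis1 at E10.5, Col5a2, Serpinh1, Omd and Pdgfb were added after their values were seen. Alternatives were normexp background correction, quantile normalization, the deposited matrix, an intensity trend, slide row as a block, other filters and leaving out each array.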

Additional observations from a re-analysis of the deposited data

Results flagged for a closer look

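In 2 of the 10 genes the rostral minus caudal difference ran one way in both duct pairs and the other way in Wt1-GFP cells. For Pdgfrb it was -1.33 in the E9.5 duct and -0.35 in the E10.5 duct, against 0.32 in Wt1-GFP cells, and the difference between reporters was -1.16 (SE 0.69, adjusted p = 0.95 in limma). For Tcf21 it was 2.46 in the E9.5 duct and 1.58 in the E10.5 duct, against -0.28 in Wt1-GFP cells, and the difference between reporters was 2.30 (SE 0.66, adjusted p = 0.81). The test of the difference, which has 1 residual degree of freedom, did not pass in either case. The share of all probes with this pattern of signs was not counted, so whether 2 of 10 genes is above that share is not known. The arrays of the E10.5 pair also lie in different slide rows. No group holds 4 arrays, so no array was tested for standing apart.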

How the results depend on the processing

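No probe passed an adjusted p of 0.05 in any comparison of the plain limma fit, and the count depended on the fit. In the E9.5 duct against Wt1-GFP cells, 227 probes passed with normexp, 827 with an intensity trend and 3 without the position term. In E8.75 against Wt1-GFP cells, 162 passed with normexp and 136 with the trend, and in E9.5 against E8.75, 114 with normexp and 1 with the trend; 1 probe passed with the trend in the difference of the position effect between reporters. The trend's 827 became 0 with slide row as a block and 99 with quantile normalization, both tried after seeing the data, and 0 to 773 when arrays were left out: 0 when rostral or caudal E10.5 was missing, 43 without the caudal E9.5 duct, 209 without the caudal and 531 without the rostral Wt1-GFP array. With normexp Col5a1 passed in the E9.5 comparison (-1.90, adjusted p = 0.03) and Col3a1 in the E8.75 comparison (-5.20, adjusted p = 0.046).

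With normexp the median over the 10 genes in the E9.5 comparison was -1.93, against -3.04. In the E8.75 comparison it was -2.43 with normexp and -2.35 with slide row as a block, against -3.80. Leaving out arrays gave medians of -3.79 to -2.20 for E9.5 against Wt1-GFP cells, -3.80 to -3.51 for E8.75 against Wt1-GFP cells, 0.52 to 1.46 for E9.5 against E8.75, -1.74 to -0.67 for E10.5 against E9.5, -1.01 to 0.84 for E11.5 against E10.5 and 0.92 to 1.61 for rostral against caudal. The sign turned for Postn (0.55) and Lum (1.23) with slide row as a block in the E9.5 comparison. That block rests on the E10.5 pair alone, where neither gene was well above background. In E9.5 against E8.75 leaving out arrays gave -0.34 (without the rostral E9.5 array) to 0.55 for Pdgfra and -0.33 (without the caudal one) to 0.98 for Pdgfrb. Col5a1 in E10.5 against E9.5 lay at 0.00 with normexp, -0.16 with the block, and -0.16 to 0.16 with arrays left out. The causes were not tested. No pairing beyond body position was possible because the labels carry no replicate numbers to use as a block. Arrays are matched across groups by body position alone, which is a term of the fit. A filter of 4 arrays well above background leaves out Tbx18, Postn and Lum and so gives no median over the 10. Signal near background leaves Lum, late Pdgfra and, against Wt1-GFP cells, Tbx18 with bounds and Postn with no fold.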
